A study of Mus musculus with 16 samples.

Results

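Messenger RNA of small leucine-rich proteoglycans and of the versican aggregate was followed in mouse lungs through 10 genes, out of 20863 genes on the array. They were taken by symbol: Bgn, Aspn and Dcn, Lum, Fmod, Prelp and Omd, Ogn, and Vcan with its link protein gene Hapln1. All 10 were measured and none was filtered out. Each gene was read at its probe with the highest mean over 16 arrays, a choice that applied only to Vcan, since the other genes each had 1 named probe. Values were log2 intensities, so a difference of 1 is a doubling, and intensities of different probes were not set against each other.

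The series asks what silencing of the microRNA miR-199a-5p does to lung fibrosis brought on by bleomycin, a drug that breaks DNA and damages the alveolar epithelium. C57BL/6 mice 9 to 12 weeks of age received, into the trachea, 5 mg/kg of LNA-miR-199a-5p, an inhibitor oligonucleotide made of locked nucleic acid (LNA), or of LNA-control. Doses were given 4 and 2 days before bleomycin or PBS and again 4 days after it. The groups were bleomycin (1 unit/kg) with LNA-miR-199a-5p (5 arrays), bleomycin with LNA-control (5 arrays), PBS with LNA-miR-199a-5p (3 arrays) and PBS with LNA-control (3 arrays). Every mouse, those given PBS included, therefore had repeated LNA instillations, and none was untreated. The sex of the mice, the day of collection and whether each array is a separate animal are not stated, so p-values measure the spread between arrays, which may in part be technical. RNA came from whole lung, in which fewer cells of a type and less RNA per cell cannot be told apart.

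Small leucine-rich proteoglycans are secreted core proteins built of leucine-rich repeats, most of them carrying chondroitin, dermatan or keratan sulfate chains. They bind collagen fibrils, set fibril diameter and spacing, and hold or release growth factors such as transforming growth factor beta (TGF-beta). Versican is a large chondroitin sulfate proteoglycan that is tied to hyaluronan chains by link proteins, and this loose provisional matrix is known for its build-up in injured and fibrotic lung.

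The inhibitor is directed at a microRNA that 2 mouse loci encode, Mir199a-2 on chromosome 1 and Mir199a-1 on chromosome 9. Its mature sequence, from RefSeq (GRCm38.p6, at chr1:162217844-162217866 on the plus strand and chr9:21496537-21496559 on the minus strand), is shown because it is the target of the treatment. Capitals mark the seed, bases 2 to 8, through which the microRNA pairs with messenger RNAs.
mmu-miR-199a-5p: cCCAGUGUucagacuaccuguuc
The arrays measured messenger RNA, so the level of the mature microRNA, and with it the degree of silencing, was not analysed here.

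The tissue label was borne out by Sftpc, the surfactant protein C gene of alveolar type 2 cells, which lay between 18.11 and 18.32 on every array, the top of the scale. Arrays of a group correlated at 0.985 or above over all genes. A few arrays stood apart in markers of other tissues. In PBS lungs with LNA-miR-199a-5p, replicate 3 had summed squamous epithelium markers at 8.98 and skeletal muscle markers at 8.81, where the group's highest values were 16.89 and 14.63. Replicates 1 and 4 of bleomycin with LNA-control had summed thymocyte markers at 12.60 and 13.26, against 10.84 to 11.52 in the rest of that group. Replicate 3 of PBS with LNA-control was also the lowest of its group for squamous epithelium (13.5) and skeletal muscle (11.7), though less far. Counts are therefore given below without the thymocyte-rich arrays, and without both PBS arrays numbered 3. The mean RNA integrity number, a score of RNA quality, was 9 in bleomycin lungs with LNA-miR-199a-5p and 8.2 in bleomycin lungs with LNA-control, and 8.33 in both PBS groups.

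With LNA-control, 6 of the 10 genes were higher in bleomycin lungs than in PBS lungs: Vcan, Fmod, Lum, Bgn, Aspn and Hapln1. Ogn and Omd were lower, and Prelp and Dcn did not pass the test. A gene was called at a limma p, adjusted by Benjamini-Hochberg over all 20863 genes, under 0.05. Among all genes, 17.5% were called in this comparison, 9.6% higher and 7.9% lower. The median change of the 10 genes was 0.44 on the log2 scale, against 0.0035 over all genes, and their median size of change regardless of sign was 0.59, against 0.14. Arrays of both groups did not overlap for 8 of the 10 genes, where 25.3% of all genes did not overlap. Without the 2 thymocyte-rich arrays 4 of the 10 genes were called, and without both PBS arrays numbered 3 there were 5. Leaving out only array 3 of the PBS group with LNA-control gave 4, and only that with LNA-miR-199a-5p gave 9. Bgn, Fmod, Ogn and Aspn were called under each of the 29 alternative settings tried.

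Among lungs given bleomycin, those with the inhibitor LNA-miR-199a-5p had, against LNA-control, 3 genes lower (Bgn, Aspn and Vcan) and 3 genes higher (Dcn, Ogn and Omd). The other 4, Lum, Fmod, Hapln1 and Prelp, had adjusted p between 0.055 and 0.089. The share called among all genes was 24.9%, with 13.4% higher and 11.4% lower. The median change of the 10 genes was -0.30 against 0.015 over all genes. Arrays did not overlap for 3 of the 10 genes, with 13.8% among all genes. Without the thymocyte-rich arrays 3 genes were called, and 8 without the PBS arrays numbered 3. Bgn, Aspn and Dcn were called in all 29 settings. This comparison and the previous one share the 5 arrays of bleomycin with LNA-control, so their changes are not independent and are set side by side only.

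Bleomycin against PBS with LNA-miR-199a-5p gave 1 gene higher, Dcn, and 1 lower, Omd, while the other 8 did not pass. Among all genes 13.4% were called, 7.31% higher and 6.04% lower, and arrays did not overlap for 3 of the 10 genes and 20.7% of all genes. Without the PBS arrays numbered 3, 0 of the 10 genes were called by limma, where 4 had an unadjusted p under 0.05 with all arrays. Between the PBS groups, LNA-miR-199a-5p against LNA-control, 0 of the 10 genes were called by limma, with 1 at an unadjusted p under 0.05, and the replicate block also gave 0. The background there was 10 genes in all, or 0.0479%, with 0.0336% higher and 0.0144% lower, and arrays did not overlap for 2 of the 10 genes and 18.1% of all genes. The interaction, the difference between the inhibitor's effects in bleomycin and in PBS lungs, passed for Dcn (positive) and Aspn (negative), where 7.01% of all genes passed, 3.07% positive and 3.94% negative. Neither was called in the interaction without the thymocyte-rich arrays or without both PBS arrays numbered 3. With only array 3 of the PBS group with LNA-miR-199a-5p left out, Dcn was lost (adjusted p = 0.077) and Aspn was kept.

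**Figure D1:**
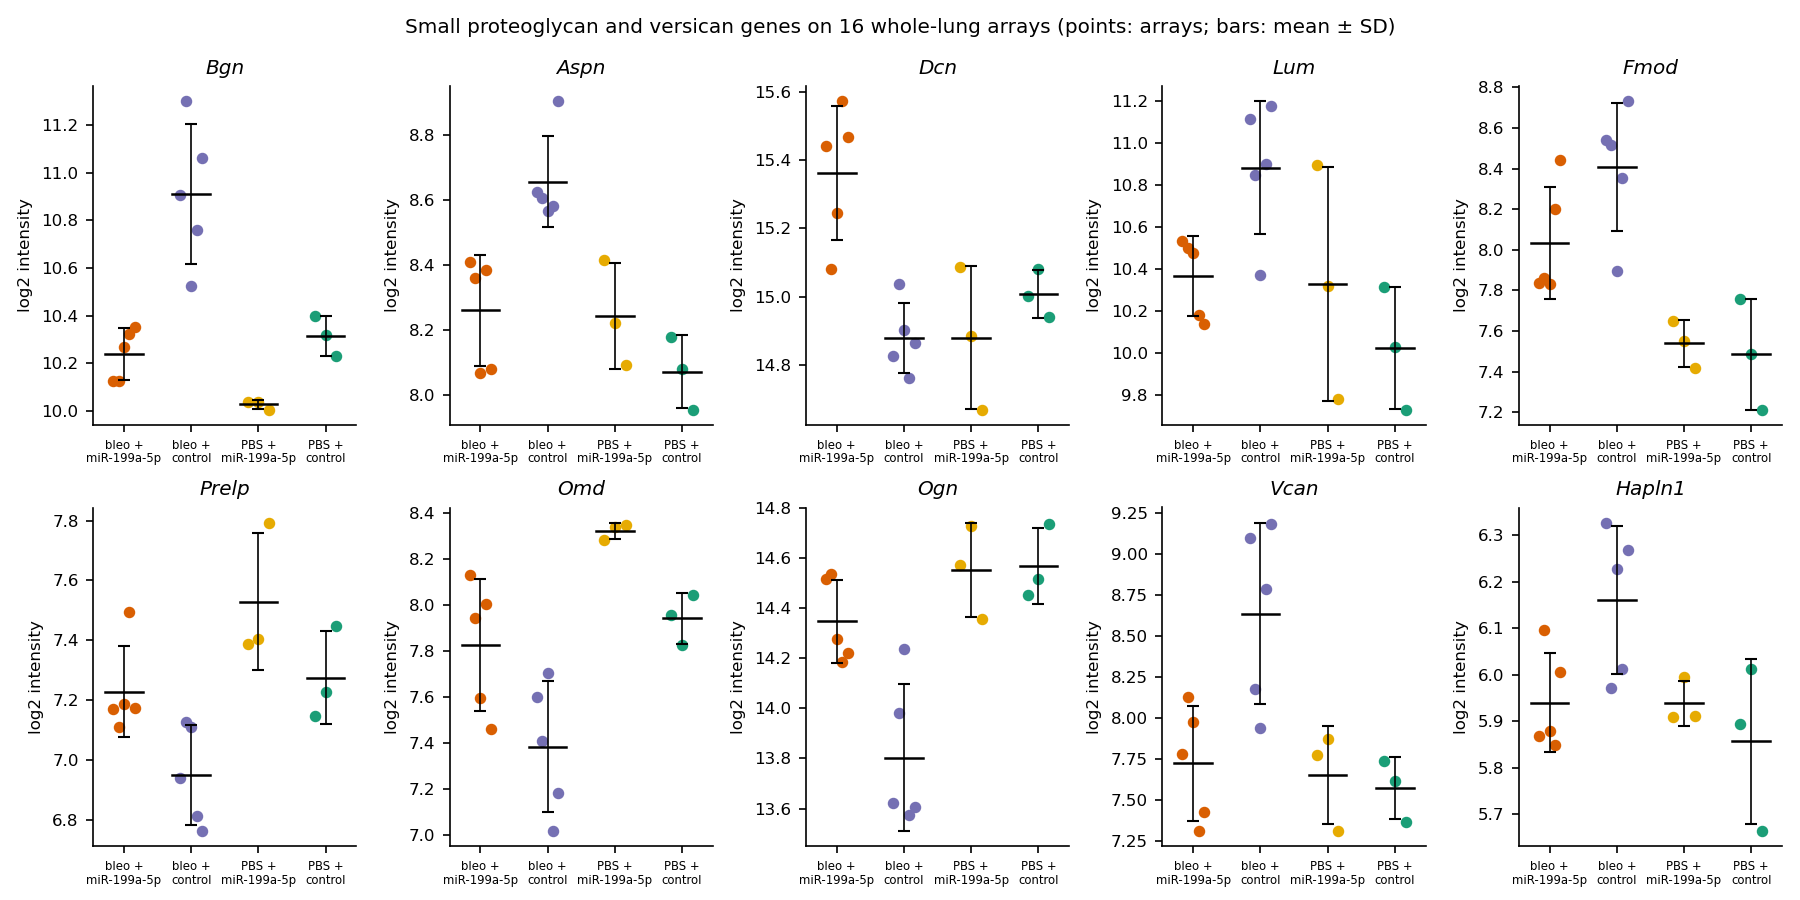
Log2 intensity (y axis of each panel, with its own range) of the 10 genes in bleomycin lungs with LNA-miR-199a-5p, bleomycin lungs with LNA-control, PBS lungs with LNA-miR-199a-5p and PBS lungs with LNA-control, from left to right. Points are arrays and bars the mean ± SD of 5, 5, 3 and 3 arrays. For Bgn and Aspn the arrays of bleomycin with LNA-control sit above those of the other groups, and for Dcn those of bleomycin with LNA-miR-199a-5p do not overlap with bleomycin and LNA-control.

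**Figure D2:**
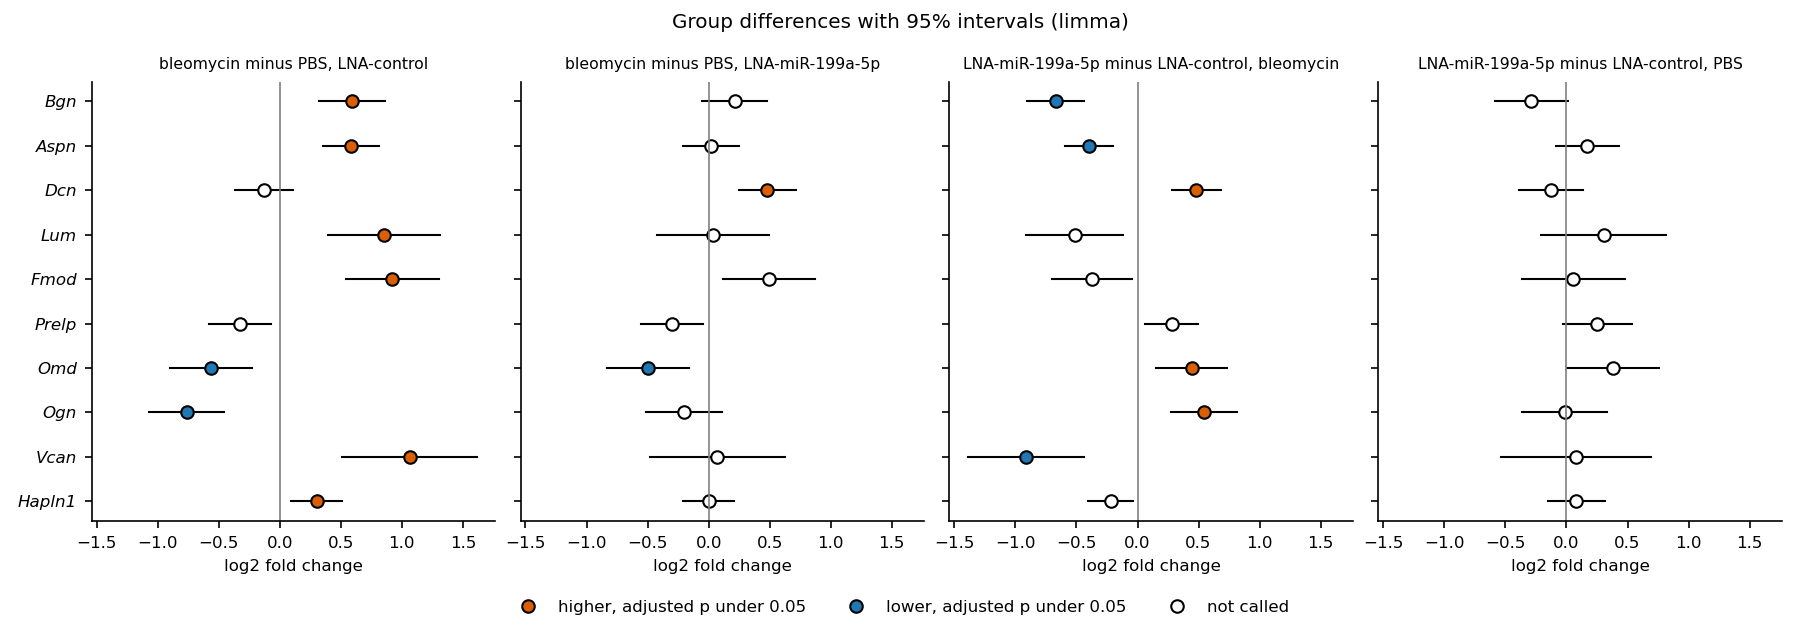
Log2 fold change with its 95% interval from limma for each gene (rows) in 4 comparisons (panels). Filled points passed at an adjusted p under 0.05, orange for higher and blue for lower. Vcan has the widest intervals, and the comparison in PBS lungs has 0 filled points.

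Biglycan, the product of Bgn, is a collagen-binding proteoglycan that, once set free from matrix, also stimulates Toll-like receptors on macrophages. Its values were 10.13, 10.13, 10.27, 10.32 and 10.35 in bleomycin lungs with LNA-miR-199a-5p, against 10.90, 11.30, 10.52, 10.76 and 11.06 in bleomycin lungs with LNA-control. In PBS lungs they were 10.04, 10.04 and 10.01 with LNA-miR-199a-5p, against 10.40, 10.32 and 10.23 with LNA-control. Bleomycin with LNA-control was thus the high group, and its lowest array lay above every array of the other groups. Bleomycin with LNA-control differed from PBS with LNA-control by 0.59 ± 0.13 (SE, adjusted p = 0.0035), a 1.51-fold increase. The inhibitor's change in bleomycin lungs was -0.67 ± 0.11 (adjusted p = 0.00048), the smallest p of the 10 genes in that comparison. In PBS lungs the arrays also did not overlap, at -0.29 ± 0.14, but the adjusted p was 0.71, and the interaction of -0.38 ± 0.18 had an adjusted p of 0.22.

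Asporin, from Aspn, binds collagen and TGF-beta and carries a run of aspartate residues in place of a glycosaminoglycan chain. Aspn read 8.41, 8.36, 8.07, 8.39 and 8.08 in bleomycin lungs with LNA-miR-199a-5p, against 8.63, 8.61, 8.57, 8.58 and 8.90 in bleomycin lungs with LNA-control. PBS lungs gave 8.42, 8.22 and 8.09 with LNA-miR-199a-5p, against 8.18, 8.08 and 7.96 with LNA-control. Only bleomycin with LNA-control stood apart, with all 5 arrays above the other 11. Its change against PBS was 0.58 ± 0.11 (adjusted p = 0.0012), and the inhibitor's change in bleomycin lungs was -0.40 ± 0.094 (adjusted p = 0.0061). With the inhibitor present, bleomycin against PBS gave 0.017 with a 95% interval of -0.21 to 0.25. The interaction was -0.57 ± 0.15 (adjusted p = 0.036), called in 16 of the 28 settings in which it could be fitted.

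Decorin, from Dcn, coats collagen fibrils and sequesters TGF-beta. Bleomycin lungs with LNA-miR-199a-5p had 15.44, 15.08, 15.25, 15.57 and 15.47, against 14.83, 15.04, 14.90, 14.76 and 14.86 in bleomycin lungs with LNA-control. The PBS values were 15.09, 14.88 and 14.67 with LNA-miR-199a-5p, against 15.00, 15.08 and 14.94 with LNA-control. Dcn was therefore highest in bleomycin lungs with the inhibitor, without overlap with bleomycin and LNA-control. It rose with the inhibitor in bleomycin lungs by 0.48 ± 0.096 (adjusted p = 0.0020), a 1.40-fold increase. Bleomycin against PBS gave 0.48 ± 0.11 with the inhibitor (adjusted p = 0.014), where arrays overlapped, and -0.13 with LNA-control (95% interval -0.36 to 0.11). The interaction of 0.61 ± 0.16 had an adjusted p of 0.030 and was called in 16 of 28 settings. With the replicate block, which treats arrays of the same number as pairs, it was not called (0.61, adjusted p = 0.060). The rise after bleomycin with the inhibitor was called in 25 of 29 settings. It was lost without the lowest Dcn array, replicate 3 of the PBS group given LNA-miR-199a-5p (0.38, adjusted p = 0.069). Nor was it called with only the arrays compared (0.48, adjusted p = 0.071) or with the replicate block (0.45, adjusted p = 0.066). Leaving out both PBS arrays numbered 3 also lost it (0.38, adjusted p = 0.083).

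Lumican and fibromodulin, from Lum and Fmod, carry keratan sulfate and compete for a site on collagen fibrils. For Lum, bleomycin lungs gave 10.53, 10.50, 10.48, 10.18 and 10.14 with LNA-miR-199a-5p, against 11.11, 10.85, 10.37, 10.90 and 11.17 with LNA-control. PBS lungs gave 10.89, 10.32 and 9.78 with LNA-miR-199a-5p, the widest spread of any group for this gene, against 10.32, 10.03 and 9.73 with LNA-control. Replicate 3 of bleomycin with LNA-control, at 10.37, overlapped with the inhibitor arrays, and the other 4 lay above them. Lum rose after bleomycin with LNA-control by 0.86 ± 0.22 (adjusted p = 0.011), but not past the threshold without the thymocyte-rich arrays (0.77, adjusted p = 0.066) or when array 3 of the PBS group with LNA-control was left out (0.71, adjusted p = 0.081). With the inhibitor in bleomycin lungs the change was -0.52 ± 0.19 (adjusted p = 0.055), and leaving out replicate 3 of bleomycin with LNA-control gave -0.64 (adjusted p = 0.015).

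Fmod read 7.84, 7.86, 7.83, 8.20 and 8.44 in bleomycin lungs with LNA-miR-199a-5p, against 8.54, 8.52, 7.89, 8.36 and 8.73 in bleomycin lungs with LNA-control. In PBS lungs it read 7.65, 7.55 and 7.42 with LNA-miR-199a-5p, against 7.76, 7.48 and 7.21 with LNA-control. Both bleomycin groups lay above their PBS groups without overlap. The change after bleomycin was 0.92 ± 0.18 with LNA-control (adjusted p = 0.0017), 1.90-fold, and 0.49 ± 0.18 with LNA-miR-199a-5p (adjusted p = 0.075). The difference between those changes, -0.43 ± 0.25, had an adjusted p of 0.33, and the bleomycin groups overlapped with each other at -0.37 ± 0.15 (adjusted p = 0.089).

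Prolargin, from Prelp, anchors basement membranes to connective tissue, and osteomodulin, from Omd, is a keratan sulfate proteoglycan of mineralised tissues. Prelp gave 7.17, 7.11, 7.19, 7.49 and 7.18 in bleomycin lungs with LNA-miR-199a-5p, against 6.94, 7.13, 7.11, 6.81 and 6.76 with LNA-control. PBS lungs gave 7.39, 7.41 and 7.79 with LNA-miR-199a-5p, against 7.15, 7.23 and 7.45 with LNA-control. With LNA-control the bleomycin arrays lay just below the PBS arrays, without overlap. That difference was -0.32 ± 0.12 and did not pass (adjusted p = 0.076), nor did the inhibitor's change in bleomycin lungs, 0.28 ± 0.10 (adjusted p = 0.061).

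Omd gave 8.13, 7.94, 7.60, 8.00 and 7.46 in bleomycin lungs with LNA-miR-199a-5p, against 7.60, 7.41, 7.71, 7.02 and 7.18 with LNA-control. In PBS lungs it gave 8.28, 8.34 and 8.35 with LNA-miR-199a-5p, against 7.96, 7.83 and 8.04 with LNA-control. PBS lungs were the high group under either LNA, with no overlap. Omd fell by 0.56 ± 0.16 after bleomycin with LNA-control (adjusted p = 0.021) and fell by 0.50 ± 0.16 after bleomycin with LNA-miR-199a-5p (adjusted p = 0.049). In bleomycin lungs it was higher with the inhibitor by 0.44 ± 0.14 (adjusted p = 0.027), although the arrays overlapped. In PBS lungs its change of 0.38 had a 95% interval of 0.0050 to 0.76 and an adjusted p of 0.68. The fall with LNA-control was called in 23 of 29 settings, that with LNA-miR-199a-5p in 11 and the rise with the inhibitor in bleomycin lungs in 21.

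Ogn encodes osteoglycin, also named mimecan, a small proteoglycan that takes part in collagen fibril assembly. Its log2 intensities were 14.52, 14.53, 14.28, 14.18 and 14.22 in bleomycin lungs with LNA-miR-199a-5p, against 13.62, 13.98, 14.24, 13.57 and 13.61 with LNA-control. PBS lungs had 14.57, 14.73 and 14.36 with LNA-miR-199a-5p, against 14.45, 14.51 and 14.74 with LNA-control. Bleomycin with LNA-control was the low group, and its replicate 3 alone reached into the range of bleomycin with the inhibitor. Ogn fell by 0.76 ± 0.15 after bleomycin with LNA-control (adjusted p = 0.0016), a level 0.589 times that of PBS lungs. In bleomycin lungs it was higher with the inhibitor by 0.54 ± 0.13 (adjusted p = 0.0057), which was lost without the thymocyte-rich arrays (0.41, adjusted p = 0.075). After bleomycin with the inhibitor the change was -0.21 with a 95% interval of -0.52 to 0.11, and the interaction of 0.56 ± 0.21 had an adjusted p of 0.12.

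Vcan had the largest SE of the 10 genes in the limma fit. At its main probe, bleomycin lungs had 7.78, 8.13, 7.98, 7.31 and 7.43 with LNA-miR-199a-5p, against 9.10, 8.18, 7.94, 8.79 and 9.18 with LNA-control. PBS lungs had 7.77, 7.87 and 7.31 with LNA-miR-199a-5p, against 7.74, 7.62 and 7.37 with LNA-control. Replicates 1, 4 and 5 of bleomycin with LNA-control were high, while replicates 2 and 3 lay near the top of the inhibitor group. Vcan rose after bleomycin with LNA-control by 1.06 ± 0.26 (adjusted p = 0.0089), or 2.09-fold, and fell by 0.91 ± 0.23 with the inhibitor in bleomycin lungs (adjusted p = 0.0080). Without the thymocyte-rich replicates 1 and 4, these were 0.86 (adjusted p = 0.069) and -0.71 (adjusted p = 0.087). With array 3 of the PBS group with LNA-control left out the rise was 0.96 (adjusted p = 0.056). With RNA integrity as a covariate the inhibitor's change was -0.74 (adjusted p = 0.054).

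Vcan was also read by 2 further probes, which were compared in a fit of all 31465 named probes. The second probe gave 6.66, 6.47, 6.92, 7.03 and 6.79 in bleomycin lungs with LNA-miR-199a-5p, against 7.39, 7.45, 6.93, 7.48 and 7.49 with LNA-control. Its changes were 0.58 ± 0.14 after bleomycin with LNA-control (adjusted p = 0.0074) and -0.58 ± 0.12 for the inhibitor in bleomycin lungs (adjusted p = 0.0025), both in the direction of the main probe and smaller. The last probe stayed between 4.87 and 5.52 on all arrays, within the lowest 25% of gene means (under 5.73), and gave 0.076 and -0.11 with neither called. The size of the Vcan change therefore depends on the probe.

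Link protein 1, from Hapln1, clamps versican or aggrecan to hyaluronan. Its probe was dim, with 5.87, 6.10, 5.88, 5.85 and 6.01 in bleomycin lungs with LNA-miR-199a-5p, against 6.33, 5.97, 6.23, 6.01 and 6.27 with LNA-control. PBS lungs had 5.91, 6.00 and 5.91 with LNA-miR-199a-5p, against 5.89, 6.01 and 5.66 with LNA-control. All groups overlapped. The change after bleomycin with LNA-control, 0.30 ± 0.099, passed narrowly (adjusted p = 0.043) and was called in 14 of 29 settings. The inhibitor's change in bleomycin lungs was -0.22 ± 0.085 (adjusted p = 0.070).

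The genes of this family lie in clusters, which allows neighbours to be compared. By the gene order of RefSeq (GRCm38.p6), Prelp and Fmod follow Optc on chromosome 1, Dcn and Lum precede Kera and Epyc on chromosome 10, Aspn, Omd and Ogn follow Ecm2 on chromosome 13, and Hapln1 and Vcan are adjacent elsewhere on chromosome 13. Bgn is on chromosome X. The first 3 clusters each held adjacent genes whose changes differed in sign. On chromosome 13, Ecm2, an extracellular matrix protein with leucine-rich repeats, fell by 0.85 ± 0.12 after bleomycin with LNA-control (adjusted p = 0.00018), while the next gene Aspn rose and Omd and Ogn fell. In bleomycin lungs the inhibitor gave the opposite order of signs, with Ecm2 higher by 0.67 ± 0.11 (adjusted p = 0.00043). Dcn and Lum, which are adjacent, had changes of 0.48 and -0.52 with the inhibitor in bleomycin lungs, of which that of Dcn passed. Prelp and Fmod had changes of -0.32 and 0.92 after bleomycin with LNA-control, of which that of Fmod passed. Kera and Epyc, the keratocan and epiphycan genes, lay between 5.18 and 5.77 on all arrays, in or next to the lowest 25% of gene means.

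**Figure D3:**
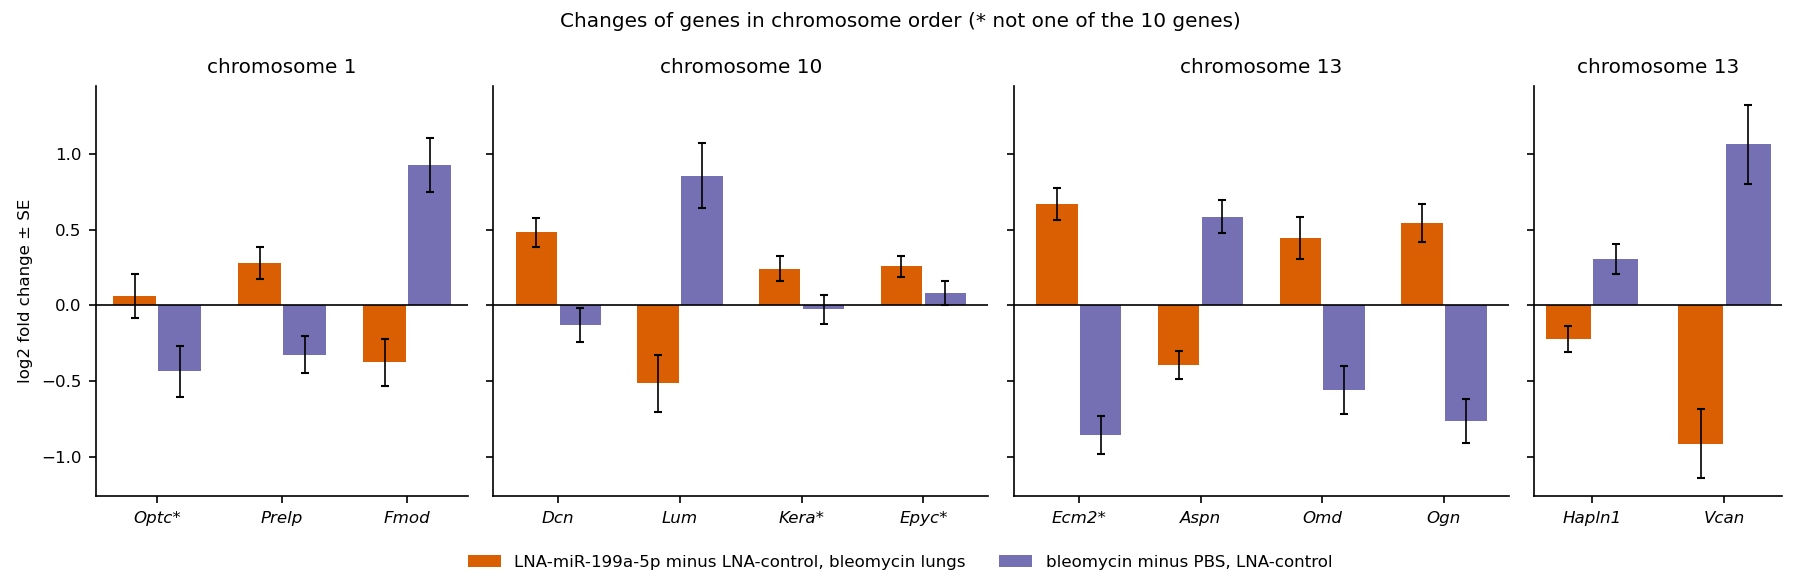
Log2 fold change ± SE (y axis) of genes in chromosome order (x axis) in 4 clusters, in orange for LNA-miR-199a-5p minus LNA-control in bleomycin lungs and in purple for bleomycin minus PBS with LNA-control. An asterisk marks genes outside the 10. Aspn has bars of the opposite sign to Ecm2, Omd and Ogn on either side of it, and the comparisons share the arrays of bleomycin with LNA-control.

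The promoters of the chromosome 13 neighbours are shown because these adjacent genes moved in opposite directions. Each runs from 250 bases before to 50 bases after the start in RefSeq (GRCm38.p6), on the strand of its gene. Capitals mark matches to TATAAA, the sequence of a TATA box, on either strand. Aspn lies at chr13:49544193-49544492, Omd at chr13:49582212-49582511 and Ogn at chr13:49607765-49608064, all on the plus strand.
Aspn: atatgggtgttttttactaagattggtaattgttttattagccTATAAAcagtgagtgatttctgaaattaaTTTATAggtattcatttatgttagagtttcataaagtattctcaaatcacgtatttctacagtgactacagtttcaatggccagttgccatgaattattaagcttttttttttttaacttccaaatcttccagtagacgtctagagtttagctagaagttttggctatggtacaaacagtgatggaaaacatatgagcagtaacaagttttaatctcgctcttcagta
Omd: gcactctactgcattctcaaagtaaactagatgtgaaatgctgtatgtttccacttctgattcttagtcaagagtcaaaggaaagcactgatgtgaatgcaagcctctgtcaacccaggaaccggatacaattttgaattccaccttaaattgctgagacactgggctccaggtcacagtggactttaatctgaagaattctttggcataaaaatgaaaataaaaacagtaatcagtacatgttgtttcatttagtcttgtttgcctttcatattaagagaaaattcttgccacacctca
Ogn: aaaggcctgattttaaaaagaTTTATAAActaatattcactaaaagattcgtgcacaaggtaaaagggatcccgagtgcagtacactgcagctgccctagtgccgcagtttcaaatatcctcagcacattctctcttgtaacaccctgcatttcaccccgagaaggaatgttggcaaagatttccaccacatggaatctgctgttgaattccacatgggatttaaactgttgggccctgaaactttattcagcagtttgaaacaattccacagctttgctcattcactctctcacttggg
Aspn and Ogn hold TATAAA, as do 13.62% of the 32851 promoters of this length in the table, and the 2 matches in Ogn overlap on opposite strands. The matches begin 207 and 178 bases before the start in Aspn and 229 and 227 bases before it in Ogn. They are matches of sequence only, and whether any acts as a TATA box was not tested.

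Bgn and Vcan are shown for the contrast in base content with the chromosome 13 neighbours. Both rose after bleomycin with LNA-control and fell with the inhibitor in bleomycin lungs, and so did Aspn, whose promoter is poor in G and C. A link between base content and these changes was not tested. Bgn lies at chrX:73483351-73483650 on the plus strand and Vcan at chr13:89742463-89742762 on the minus strand, and capitals mark GGGCGG, the GC box, on either strand.
Bgn: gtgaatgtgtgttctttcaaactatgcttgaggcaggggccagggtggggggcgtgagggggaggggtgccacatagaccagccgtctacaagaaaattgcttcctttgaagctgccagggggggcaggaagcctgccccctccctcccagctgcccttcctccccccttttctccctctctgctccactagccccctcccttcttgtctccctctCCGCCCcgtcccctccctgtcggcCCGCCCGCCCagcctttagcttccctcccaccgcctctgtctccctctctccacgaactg
Vcan: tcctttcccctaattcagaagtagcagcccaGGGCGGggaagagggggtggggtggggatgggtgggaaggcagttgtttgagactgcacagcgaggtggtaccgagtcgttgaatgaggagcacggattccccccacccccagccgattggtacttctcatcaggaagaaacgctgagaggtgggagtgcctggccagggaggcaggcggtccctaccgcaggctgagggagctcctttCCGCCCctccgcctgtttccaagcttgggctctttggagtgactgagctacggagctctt
GGGCGG was held by 35.66% of all promoters, and the last 2 matches in Bgn overlap. G and C made up 63.67% of the Bgn and 61% of the Vcan promoter, against 31% in Aspn, 37.67% in Omd and 42.33% in Ogn, with a median of 52.67% over all promoters. Of the 8 genes with a promoter in the table, CCAAT was found in Prelp, Fmod, Aspn and Vcan (37.41% of all promoters) and CAGAC, a SMAD-binding element, in Prelp, Fmod and Hapln1 (49.59%), both searched on either strand. The AP-1 site, TGACTCA or TGAGTCA, was found in 0 of the 8 (5.202% of all). Dcn and Lum are named only.

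Across the 16 arrays the genes varied in opposed sets, given here as a description of arrays that share group differences. Lum correlated with Vcan at 0.87 and with Aspn at 0.85 (Pearson's r), and Omd with Ogn at 0.83 and with Prelp at 0.82. Fmod and Ogn ran against each other at -0.86. After the group means were taken away, Lum still correlated with Vcan at 0.76, Bgn with Fmod at 0.74 and Omd with Ogn at 0.57, while Prelp correlated with Vcan at -0.80 and with Lum at -0.76. Dcn stood outside both sets, with r between -0.44 and 0.25 over the 16 arrays.

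**Figure D4:**
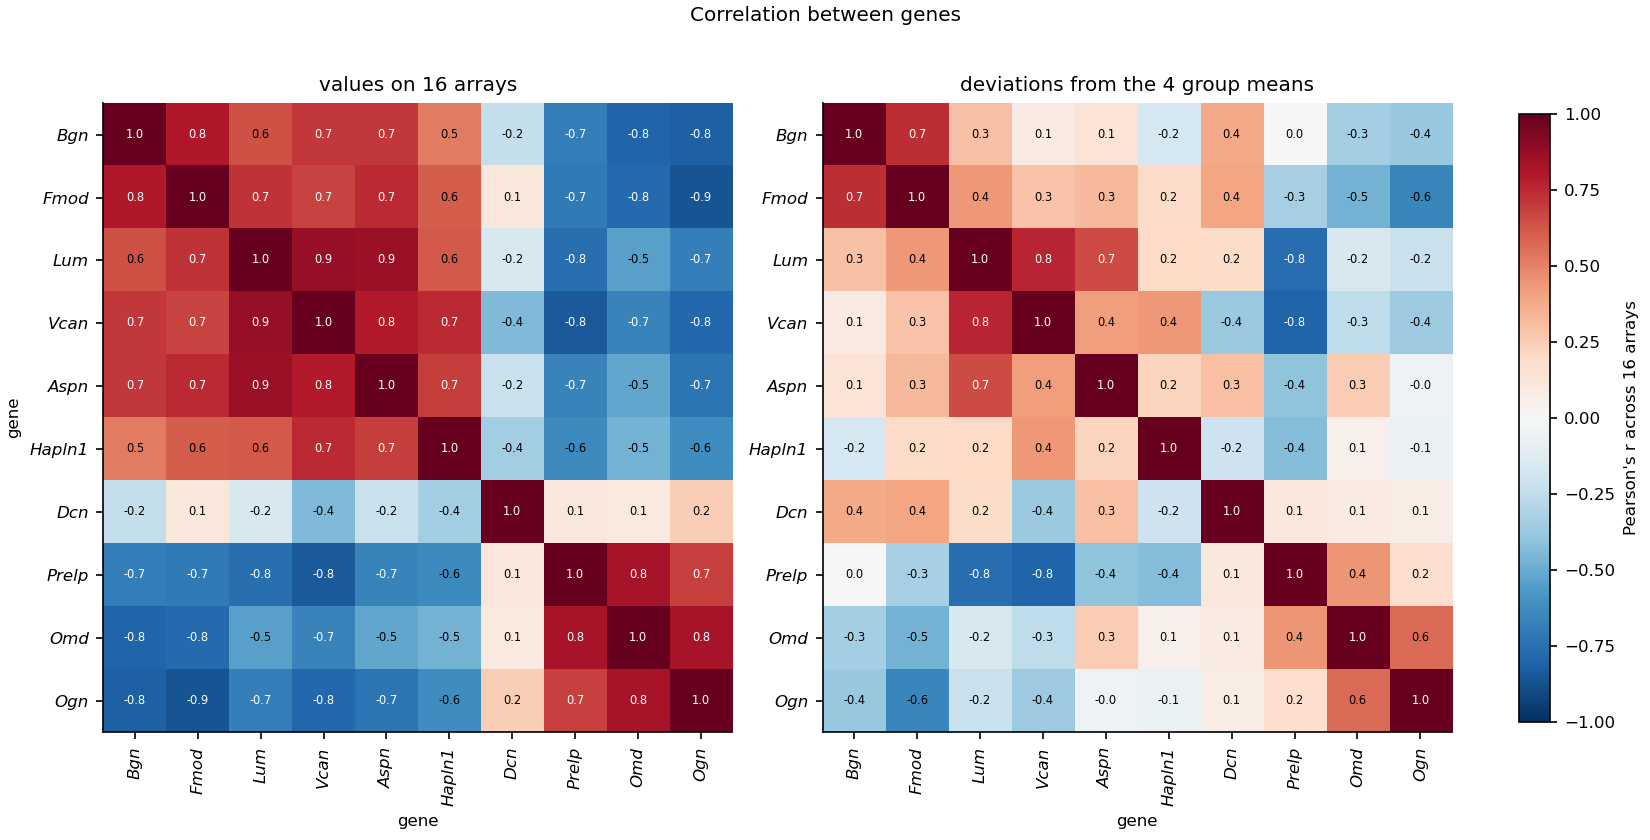
Pearson's r between each pair of genes over 16 arrays, on the values (left) and on deviations from the 4 group means (right), with red for positive and blue for negative. Bgn, Fmod, Lum, Vcan, Aspn and Hapln1 form a red block on the left and Prelp, Omd and Ogn another, and fewer pairs keep deep colours on the right.

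Other genes of the pathway are given by counts of called genes, to be read against the shares over all genes, 9.6% higher and 7.9% lower after bleomycin with LNA-control and 13.4% higher and 11.4% lower with the inhibitor in bleomycin lungs. Other small leucine-rich proteoglycans were a list of 10 genes, all measured. After bleomycin with LNA-control, 1 rose (Podn, podocan, 0.56 ± 0.18, adjusted p = 0.046) and 2 fell, Ecm2 and Chad. Chad, chondroadherin, is a cartilage protein that binds collagen and integrins, and it averaged 10.07 in bleomycin lungs with LNA-miR-199a-5p against 8.76 with LNA-control, and 9.62 against 9.73 in PBS lungs. Its changes were -0.97 ± 0.20 after bleomycin with LNA-control (adjusted p = 0.0029) and 1.31 ± 0.18 with the inhibitor in bleomycin lungs (adjusted p = 9.6e-05). In bleomycin lungs the inhibitor raised 4 of the 10 and lowered 0, namely Chad, Ecm2, Kera and Epyc, the last pair near the bottom of the scale. The list medians were -0.082 after bleomycin with LNA-control and 0.21 for the inhibitor in bleomycin lungs.

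Of 10 fibrillar and fibril-associated collagen genes, to which small proteoglycans bind, 7 rose and 0 fell after bleomycin with LNA-control (median 0.85), where 9.6% of all genes were higher, and the other 3 did not pass. In bleomycin lungs 8 fell and 0 rose with the inhibitor (median -0.60), where 11.4% of all genes were lower, and the other 2 did not pass. Col1a1, the main fibrillar collagen chain, averaged 13.37 in bleomycin lungs with LNA-miR-199a-5p, 14.49 in bleomycin lungs with LNA-control, 13.12 in PBS lungs with LNA-miR-199a-5p and 13.26 in PBS lungs with LNA-control. Its changes were 1.23 ± 0.16 after bleomycin with LNA-control (adjusted p = 7.8e-05) and -1.12 ± 0.14 for the inhibitor in bleomycin lungs (adjusted p = 5.7e-05). After bleomycin with LNA-miR-199a-5p the list median was 0.16.

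Proteases that cut versican numbered 6, of which 3 rose and 1 fell after bleomycin with LNA-control. Adamts4, an aggrecan- and versican-cleaving enzyme, averaged 8.33 in bleomycin lungs with LNA-miR-199a-5p and 10.00 with LNA-control, against 8.44 and 8.11 in PBS lungs with LNA-miR-199a-5p and LNA-control. It rose by 1.89 ± 0.32 after bleomycin with LNA-control (adjusted p = 0.00062) and fell by 1.68 ± 0.28 with the inhibitor in bleomycin lungs (adjusted p = 0.00052). Adamts9 rose after bleomycin with LNA-control by 0.93 and Adamts15 by 0.30, and Adamts5 fell by 0.45. With the inhibitor in bleomycin lungs 2 of the 6 fell, Adamts4 and Adamts15.

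Among 18 genes of hyaluronan metabolism and its receptors, 7 rose and 3 fell after bleomycin with LNA-control, beside 9.6% higher and 7.9% lower among all genes. In bleomycin lungs 5 rose and 5 fell with the inhibitor, beside 13.4% and 11.4% among all genes. Itih3, a heavy chain that is transferred to hyaluronan, rose by 0.81 ± 0.11 and Tnfaip6, the enzyme of that transfer, by 0.77 ± 0.16 after bleomycin with LNA-control. Stab2, a scavenger receptor for hyaluronan, rose by 0.69, and Lyve1, the receptor of lymphatic endothelium, fell by 0.55. With the inhibitor in bleomycin lungs Hmmr, a hyaluronan-binding protein of dividing cells, fell by 0.77 and Itih1 rose by 0.57.

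Of 24 genes for enzymes that build the glycosaminoglycan chains, 2 rose and 5 fell after bleomycin with LNA-control (median 0.039), where 9.6% of all genes were higher and 7.9% lower. With the inhibitor in bleomycin lungs 5 rose and 4 fell (median 0.020), where 13.4% of all genes were higher and 11.4% lower. Apart from the 5 that fell after bleomycin, these counts are near the background. Both that rose after bleomycin polymerise chondroitin: Chsy3 by 0.74 ± 0.13 (adjusted p = 0.00072) and Chpf by 0.41 ± 0.087 (adjusted p = 0.0031). With the inhibitor in bleomycin lungs they changed by -0.87 ± 0.11 (adjusted p = 6.4e-05) and -0.43 ± 0.075 (adjusted p = 0.00077). Csgalnact1, which starts chondroitin chains, fell by 0.51 after bleomycin with LNA-control, and the sulfotransferase Chst7 fell by 0.49. Of 8 keratan sulfate genes, 1 rose and 2 fell after bleomycin with LNA-control, and 3 rose and 0 fell with the inhibitor in bleomycin lungs. The keratan sulfate sulfotransferase Chst1 had -0.45 ± 0.079 and 0.47 ± 0.068 in those comparisons (adjusted p = 0.00081 and 0.00017).

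Receptors and partners were a list of 12 genes with 11 measured, of which 4 rose after bleomycin with LNA-control and 6 fell with the inhibitor in bleomycin lungs, and 0 went the other way in either. Tlr2, a Toll-like receptor for which biglycan is a ligand, rose by 0.82 ± 0.10 (adjusted p = 4.6e-05) after bleomycin with LNA-control. Bmp1, the procollagen C-proteinase that also trims the propeptide of biglycan, rose by 0.63 ± 0.082 (adjusted p = 6.9e-05) and fell by 0.58 ± 0.071 with the inhibitor in bleomycin lungs (adjusted p = 5.1e-05). Ccn4, a matricellular protein that binds decorin and biglycan, rose by 0.98 after bleomycin with LNA-control, and Tgfb2 fell by 0.70 with the inhibitor in bleomycin lungs. Among 20 other proteoglycan core proteins 8 rose and 5 fell after bleomycin with LNA-control. Spock2, testican 2, had 1.46 ± 0.12 (adjusted p = 7.6e-07) and -1.45 ± 0.10 (adjusted p = 1.7e-07) for bleomycin with LNA-control and for the inhibitor in bleomycin lungs, and Esm1, endocan of endothelium, fell by 1.66 after bleomycin with LNA-control. Of 6 other hyalectans and link proteins, which had a median of 0.010 after bleomycin with LNA-control, 1 fell with the inhibitor in bleomycin lungs: Hapln3, which fell by 0.28.

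Marker lists of cells that make or could carry these transcripts moved with the groups, and their part in the results was not tested. Scar fibroblast markers were 7 genes, Cthrc1, Postn, Tnc, Fap, Ltbp2, Grem1 and Sfrp1. They had summed log2 levels of 13.92 to 14.08 in bleomycin lungs with LNA-miR-199a-5p, against 14.34 to 14.92 with LNA-control, and 13.92 to 14.09 in PBS lungs with LNA-miR-199a-5p, against 13.78 to 13.99 with LNA-control. Of these, 6 of 7 rose after bleomycin with LNA-control, where 9.6% of all genes were higher. With the inhibitor in bleomycin lungs 6 of 7 fell, where 11.4% of all genes were lower. For Bgn and Aspn, too, bleomycin with LNA-control was the high group. Postn did not rise with LNA-control, at 12.31 to 12.46 after bleomycin against 12.27 to 12.63 in PBS lungs. With LNA-miR-199a-5p it read 11.74 to 12.28 against 12.60 to 12.74. Fap overlapped between the bleomycin groups. The summed level of resident lung fibroblast markers (10 genes) overlapped between all groups. It was 15.44 to 15.64, 15.31 to 15.63, 15.43 to 15.61 and 15.39 to 15.48 in the same order of groups. Cd34, the brightest gene of this list at 14.54 to 15.15 over all arrays, weighs most in the sum. Pdgfra did not overlap between the bleomycin groups, at 12.58 to 12.92 with LNA-miR-199a-5p against 12.27 to 12.55 with LNA-control. One by one, 0 of these 10 rose and 2 fell after bleomycin with LNA-control (median -0.20), beside 9.6% higher and 7.9% lower among all genes. With the inhibitor in bleomycin lungs 4 rose and 0 fell (median 0.25), beside 13.4% and 11.4% among all genes.

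Smooth muscle and pericyte markers were higher without overlap in bleomycin lungs with LNA-miR-199a-5p (15.84 to 16.23, against 15.62 to 15.70 with LNA-control), as were fat markers (16.19 to 16.50 against 15.11 to 15.66). Cardiac muscle markers in bleomycin lungs overlapped narrowly, at 15.42 to 16.26 with LNA-miR-199a-5p against 14.81 to 15.43 with LNA-control. Skeletal muscle markers had 14.19 to 15.30 against 13.23 to 13.76, and squamous epithelium markers 16.48 to 17.47 against 15.11 to 16.44. Dcn was likewise higher in bleomycin lungs with the inhibitor. One by one, 6 of 6 cardiac muscle, 4 of 7 fat and 4 of 9 smooth muscle and pericyte genes were called higher there, and 0 lower. Among all genes 13.4% were higher and 11.4% lower. Of the 5 skeletal muscle and 7 squamous genes, 0 were called there. In PBS lungs with LNA-miR-199a-5p, replicates 1 and 2 also had 14.63 and 13.62 for skeletal muscle and 16.89 and 16.12 for squamous epithelium. Mesothelium had 13.81 to 14.24 in bleomycin lungs with LNA-miR-199a-5p against 13.72 to 13.92 with LNA-control, and macrophage markers had 16.03 to 16.11 against 16.30 to 16.47. Endothelium had 15.92 to 16.09 against 15.38 to 15.63. With the inhibitor in bleomycin lungs 4 of 4 endothelium and 3 of 5 mesothelium genes were called higher, and 0 lower. Of the 6 macrophage genes 4 were called lower and 1 higher.

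Cartilage and tendon are rich in these proteoglycans. The summed level of cartilage markers (15 genes) overlapped in the 4 groups, at 12.63 to 12.81, 12.69 to 12.83, 12.75 to 12.85 and 12.75 to 12.80 in the order above. One by one, 1 of the 15 rose and 2 fell after bleomycin with LNA-control, beside 9.6% higher and 7.9% lower among all genes. With the inhibitor in bleomycin lungs 2 rose and 1 fell, beside 13.4% and 11.4% among all genes. These counts are near the background. Matn4 read 11.36 to 11.99 in bleomycin lungs with LNA-miR-199a-5p, against 12.05 to 12.44 with LNA-control. Cytl1 went the other way, at 10.55 to 10.97 against 9.37 to 10.15. Chad, given above among the other small leucine-rich proteoglycans, is also on this list and is counted in both. Its changes were -0.97 after bleomycin with LNA-control and 1.31 with the inhibitor in bleomycin lungs. The defining genes Matn1 and Matn3 lay between 4.95 and 5.42 on every array, near the bottom of the scale. Acan, aggrecan, averaged 5.58 to 5.71 in the 4 groups. The tendon and perichondrium list (5 genes) was 11.62 to 11.86 in bleomycin lungs with LNA-miR-199a-5p, against 11.96 to 12.18 with LNA-control, and 11.55 to 11.65 in PBS lungs with LNA-miR-199a-5p, against 11.42 to 11.70 with LNA-control. Of its genes Kera, Tnmd and Mkx averaged 5.29 to 5.88 in the 4 groups. Thbs4, thrombospondin 4, averaged 8.07 in bleomycin lungs with LNA-miR-199a-5p and 9.88 with LNA-control, and was the gene of this list that rose after bleomycin with LNA-control, by 3.44 ± 0.43.

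**Figure D5:**
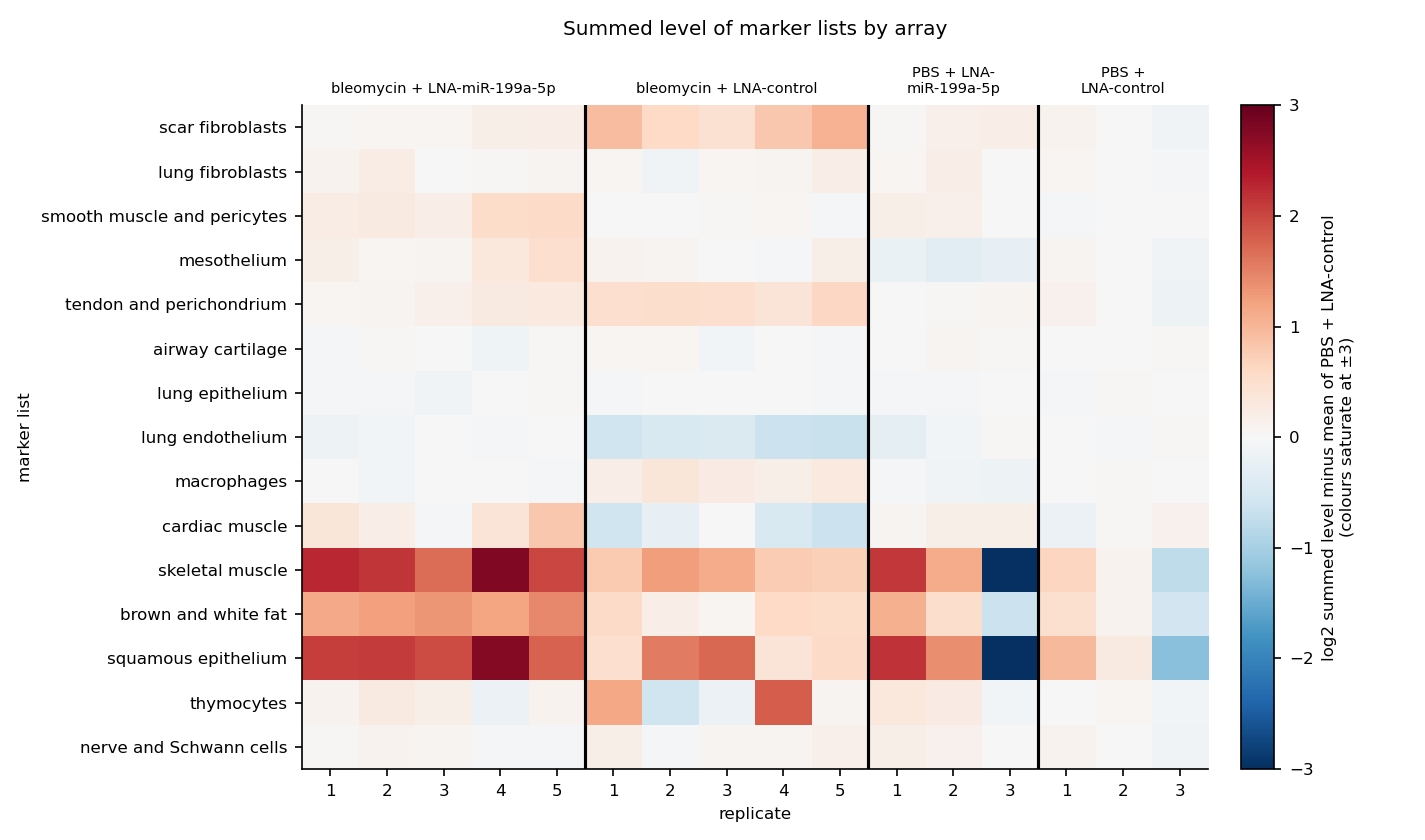
Summed level of each marker list (rows) on each array (columns, by group and replicate), as log2 difference from the mean of PBS with LNA-control, with red for higher and blue for lower and colours saturating at ±3. Scar fibroblast markers are red in bleomycin lungs with LNA-control, and muscle, fat and squamous markers in bleomycin lungs with LNA-miR-199a-5p. Skeletal muscle and squamous markers are also red in bleomycin lungs with LNA-control and in replicates 1 and 2 of PBS lungs with LNA-miR-199a-5p. In that PBS group replicate 3 is blue for both.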

How the data were processed

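The deposited values are log2 intensities of Cy3-labelled RNA (0.2 ug, Agilent low-input labelling, per the labels) that the authors prepared with limma, per the submitters' processing notes, which give no version. How background was corrected, the scanner software and any filters are not given in the sources used here. Sorted values of the arrays lay within 0.0974 of each other, close to quantile normalized, and were not rescaled. Arrays have no count depth, and their number limits the precision.

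Of 62976 spots, 31465 had a gene name in the platform annotation. Symbols were updated through RefSeq for 29036 probes matched by accession, which changed 2933. Where a gene had several probes (6086 genes), that with the highest mean stood for it, which left 20863 genes with no filter on level. Group means of all 16 arrays were fitted with limma 3.58.1 in R 4.3.3 (lmFit, eBayes), with 5 contrasts, two-sided tests and Benjamini-Hochberg adjustment over all genes. The fit was tested on simulated data. A list's summed level is the log2 of its summed linear intensities.

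Members and lists were chosen with earlier results of these data known. Named genes are the 10 members, from each pathway list at most 4 genes by p for bleomycin in LNA-control lungs and at most 2 by p for the inhibitor after bleomycin, defining markers, and the 2 genes most like each member above the median of all genes. Kera, Epyc and Optc are named as neighbours.

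Arrays with the same replicate number deviated together in the PBS groups (correlations of deviations from group means of 0.108 to 0.497 over 3 pairs). PBS arrays of unlike number had -0.452 to 0.287, so the ranges overlapped. In the bleomycin groups arrays of the same number did not deviate together (-0.373 to 0.0271 over 5 pairs). Between the bleomycin and PBS groups with LNA-miR-199a-5p they had 0.043 to 0.324 over 3 pairs. Arrays of unlike number there had -0.201 to 0.208. Between the groups with LNA-control, arrays of the same number had -0.102 to -0.0073 over 3 pairs. The series design names no batch or block, so pairing by number is an assumption. The replicate block applies it to all groups and is given only as an alternative. Alternatives were leaving out each array, the replicate block, array weights, RNA integrity as a covariate, fitting only the arrays compared, other probe choices, a filter on level and other scalings. Further alternatives left out the thymocyte-rich arrays or both PBS arrays numbered 3.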

Additional observations from a re-analysis of the deposited data

Results flagged for a closer look

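In 5-array groups, 20 sets of values were tested for an array apart from the rest with Dixon's ratio of gap to range (critical value 0.71), and chance alone flags about 1 in 20. In bleomycin lungs with LNA-miR-199a-5p, Prelp in replicate 4 was 7.49, with a ratio of 0.796, while the other 4 arrays lay between 7.11 and 7.19. Aspn in replicate 5 of bleomycin with LNA-control was 8.90, with a ratio of 0.825, above 4 arrays between 8.57 and 8.63. Without that array the interaction of Aspn was -0.51 (adjusted p = 0.057).

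The effect of the inhibitor differed between bleomycin and PBS lungs by the interaction test for Dcn, at 0.61 (adjusted p = 0.030, and 0.060 with the replicate block), and for Aspn, at -0.57 (adjusted p = 0.036). Dcn was changed by 0.48 in bleomycin lungs and by -0.13 in PBS lungs. Aspn was changed by -0.40 in bleomycin lungs and by 0.17 in PBS lungs. Neither change in PBS lungs passed the test.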

How the results depend on the processing

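Each of the 10 genes was retested under 29 alternatives per comparison (28 for the interaction). Of 1440 retests 1320 kept the call, 83 lost it, 37 gained it and 0 called values changed sign. The causes of the moves were not tested. Counts of the 10 genes called are given in the order bleomycin with LNA-control, bleomycin with LNA-miR-199a-5p, inhibitor in bleomycin lungs, inhibitor in PBS lungs and interaction, where 8, 2, 6, 0 and 2 were reported. They were 5, 0, 8, 0 and 0 without the PBS arrays numbered 3, and 4, 2, 3, 0 and 0 without the thymocyte-rich arrays. They were 8, 1, 4, 0 and 0 with RNA integrity as a covariate, and 9, 1, 10, 0 and 7 with array weights. The replicate block gave 6, 0, 8, 0 and 1, with Dcn lost in the interaction (adjusted p = 0.060). It bears on the comparison in PBS lungs, and in part on the interaction, if numbers pair the PBS arrays. Bleomycin with LNA-miR-199a-5p is likewise affected if numbers pair its arrays. There the block lost Dcn and Omd (adjusted p = 0.066 and 0.16). The series design states neither pairing. Only the arrays compared gave 7, 0, 6 and 0, with fewer arrays behind the spread. Leaving out 1 array at a time gave 4 to 9, 0 to 3, 5 to 9, 0 to 0 and 0 to 5. Vcan ranged from 0.57 (mean of its probes) to 1.26 after bleomycin with LNA-control.

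Over all genes, the reported 3651, 2786, 5188, 10 and 1462 became 2268, 791, 5164, 31 and 513 without the PBS arrays numbered 3. They became 2258, 2314, 2356, 3 and 525 without the thymocyte-rich arrays, 3674, 1162, 2981, 11 and 733 with RNA integrity, and 6713, 2835, 5963, 394 and 3862 with array weights. The replicate block gave 2429, 663, 4542, 3 and 947, and only the arrays compared 3812, 271, 4329 and 0. Leaving out 1 array gave 2293 to 3984, 1186 to 3534, 3785 to 5640, 2 to 121 and 632 to 2215. Other scalings moved the median of all genes by at most 0.048. Hapln1 and the last Vcan probe lie near the bottom of the scale, where changes are compressed.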

Other observations

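For each of the 4 genes whose mean lay above the median of all genes (8.47), the genes most like it were taken by Pearson's r of deviations from group means over 16 arrays, as a description. Bgn was closest to Ctsd, the lysosomal protease cathepsin D (0.919), and to Gart, an enzyme of purine synthesis (0.889). Ctsd changed by -0.91 ± 0.093 with the inhibitor in bleomycin lungs and by 1.40 ± 0.11 after bleomycin with LNA-control, while Gart was called in neither. Dcn was closest to Sbk2 (0.865) and Fitm1 (0.862), a fat-storage protein of muscle, and both rose with the inhibitor in bleomycin lungs, by 0.41 and 0.70. Lum was closest to Fndc1 (0.956) and to Orm2, an acute-phase plasma protein (0.927). Ogn was closest to the phosphodiesterase gene Pde8b (0.929) and the sodium channel gene Scn3a (0.922), which fell after bleomycin with LNA-control by 1.04 and 0.86.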
